A study of Mus musculus with 8 samples.

Results

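The NR4A orphan receptor genes are Nr4a1, Nr4a2 and Nr4a3, 3 of the 21631 annotated protein-coding genes. Their members here are all called peaks that lie in the body of a gene or within 50 kb of either end on mm10. That rule took 348 of the 867023 peaks in the 8 deposited lists, and it used no measured level. The windows held 53 and 61 H3K4me1 peaks in RXRKO replicates 1 and 2, against 60 and 67 in WT replicates 1 and 2. They held 28 H3K4me3 peaks in RXRKO and 23 in WT, and 24 H3K27ac peaks in RXRKO and 32 in WT.

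NR4A proteins are nuclear receptors with no established natural ligand, whose genes are switched on within minutes by growth factors, cyclic AMP, antigen or stress. They bind the NBRE, a nuclear receptor recognition sequence with a short extension of A bases, as monomers. Nr4a1 and Nr4a2 can also pair with retinoid X receptors, the proteins deleted in this study, whereas Nr4a3 is not known to do so. In mouse blood stem cells Nr4a1 and Nr4a3 restrain proliferation, and mice that lack both develop acute myeloid leukaemia.

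Histone marks were profiled with CUT&RUN: antibodies bring protein A-MNase to modified nucleosomes, and the DNA it cuts free is sequenced. Haematopoietic stem cells (HSCs) of C57BL/6 mouse bone marrow were sorted as Lin-cKit+Sca1+CD48-CD150+, with 7500 cells per assay, from mice of about 10 months in pools of 4 or 5. RXRKO mice carried floxed Rxra and Rxrb deleted by Vav-Cre, which acts in blood cells and their precursors. WT mice carried both floxed genes according to the design text, while the sample labels record Vav-Cre in WT as well, so a difference in Cre between the genotypes cannot be told apart from the deletion. H3K4me1, found at enhancers and promoter flanks, had 2 RXRKO and 2 WT libraries. H3K4me3, found at promoters, and H3K27ac, found at active promoters and enhancers, had 1 RXRKO and 1 WT library each and therefore carry no error. The labels do not say whether H3K4me1 replicates came from separate pools, so p-values measure only the spread between libraries.

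H3K4me1 peaks covered 580 and 738 bp of Rxrb in the RXRKO replicates, against 1391 and 1431 bp in the WT replicates, and a run of 781 bp was covered in both WT lists and in neither RXRKO list. In Rxra the longest such run was 76 bp, and H3K4me1 covered 22567 and 25320 bp in RXRKO replicates 1 and 2, against 21563 and 24413 bp in WT replicates 1 and 2. Lists held 147698 and 165128 H3K4me1 peaks in RXRKO and 149377 and 159713 in WT, 58136 H3K4me3 peaks in RXRKO and 47835 in WT, and 64849 H3K27ac peaks in RXRKO and 74287 in WT. Read totals were not used here, so depth is unknown. Of all genes, 66.6% carried H3K4me3 at the start in both genotypes, 1.08% in RXRKO alone and 0.425% in WT alone. For 4357 of the 21631 genes that start was itself placed by H3K4me3. Starts of all 12 HSC markers carried H3K4me3 in RXRKO and in WT, as did those of 8 of 10 stromal and endothelial markers in each genotype. None of the 10 granulocyte and monocyte markers did in either genotype, and 3 of 10 lymphocyte markers did in RXRKO and 2 in WT. Of the granulocyte and monocyte markers, Csf1r carried H3K27ac at its start in both genotypes and Mpo in WT alone. Ly6g and Ly6c2 had too little of every mark in their windows to be compared. Of 6 genes whose products the gate excludes, 2 carried H3K4me3 at the start in RXRKO and 1 in WT. The difference was Cd48, marked in RXRKO alone. Erythroid and megakaryocyte markers were marked in 6 of 10 cases in each genotype. Of these 10, the adult beta-globin genes Hbb-bt and Hbb-bs are neighbours with shared windows. Both had more H3K4me3 there in RXRKO, by 1.27 on the log2 scale each. H3K4me3 summed over the list, where peaks in shared windows count more than once, covered 68.2 kb in RXRKO and 54.3 kb in WT. The sum was higher in RXRKO in the other marker lists too. It was 186.7 kb in RXRKO and 152.0 kb in WT for HSC markers, and 72.7 kb in RXRKO and 70.2 kb in WT for lymphocyte markers. Over the windows of all genes it was 132156.9 kb in RXRKO and 117944.6 kb in WT. H3K27ac summed over the windows of HSC markers covered 130.5 kb in RXRKO and 134.9 kb in WT. It covered 44.3 kb in RXRKO and 52.7 kb in WT for lymphocyte markers, 36.8 kb in RXRKO and 43.3 kb in WT for granulocyte and monocyte markers, and 19.6 kb in RXRKO and 20.8 kb in WT for gate-excluded markers. For erythroid and megakaryocyte markers it covered 56.0 kb in RXRKO and 53.2 kb in WT, and for stromal and endothelial markers 54.4 kb in RXRKO and 62.1 kb in WT. Over the windows of all genes it covered 98095.7 kb in RXRKO and 105751.2 kb in WT. Whether other cell types took part in the differences below was not tested.

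Nr4a1 lies on chromosome 15 from 101253902 to 101274795 on the plus strand. Its RefSeq start, at 101266846, is 12944 bp inside the outer 5′ end of the annotated gene. Nr4a2 lies on chromosome 2 from 57106830 to 57124003 on the minus strand and starts at 57124003. Nr4a3 lies on chromosome 4 from 48045078 to 48086447 on the plus strand and starts at 48045305. Distances below run from these RefSeq starts in the direction of transcription, with negative values upstream. The windows span 120.9, 117.2 and 141.4 kb.

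The promoters of all 3 genes are shown because every start carried H3K4me3 in both genotypes and because cyclic AMP signalling is a known inducer of the family. Each runs from 250 bases before the start to 50 bases from it onward, taken from the RefSeq promoter table of GRCm38.p6, 5′ to 3′ on the gene's own strand. The windows are chr15:101266596-101266895 (plus), chr2:57123954-57124253 (minus) and chr4:48045055-48045354 (plus). Capitals mark the core of the cAMP response element (CRE), TGACG, or its reverse complement CGTCA.
Nr4a1: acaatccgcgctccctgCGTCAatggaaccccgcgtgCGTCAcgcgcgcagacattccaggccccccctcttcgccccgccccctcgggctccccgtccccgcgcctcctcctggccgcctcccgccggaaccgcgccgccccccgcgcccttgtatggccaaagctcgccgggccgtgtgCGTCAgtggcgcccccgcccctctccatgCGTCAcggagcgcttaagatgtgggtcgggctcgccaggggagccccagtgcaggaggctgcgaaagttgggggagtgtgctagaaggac
Nr4a2: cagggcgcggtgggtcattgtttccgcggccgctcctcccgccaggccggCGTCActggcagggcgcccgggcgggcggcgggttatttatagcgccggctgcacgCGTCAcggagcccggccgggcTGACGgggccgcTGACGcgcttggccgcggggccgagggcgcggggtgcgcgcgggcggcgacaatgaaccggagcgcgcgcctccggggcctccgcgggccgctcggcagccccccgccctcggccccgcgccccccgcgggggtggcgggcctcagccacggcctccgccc
Nr4a3: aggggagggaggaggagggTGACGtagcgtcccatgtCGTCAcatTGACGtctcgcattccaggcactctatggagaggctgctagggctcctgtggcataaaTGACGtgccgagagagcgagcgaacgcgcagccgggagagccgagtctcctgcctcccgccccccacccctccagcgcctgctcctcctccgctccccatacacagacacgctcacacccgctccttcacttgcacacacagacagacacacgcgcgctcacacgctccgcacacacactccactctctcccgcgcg

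Each of the 3 promoters held 4 CRE cores. They start 233, 213, 69 and 40 bases upstream in Nr4a1, 200, 144, 123 and 111 bases upstream in Nr4a2, and 231, 213, 205 and 147 bases upstream in Nr4a3. Among 32851 RefSeq promoter windows of the same length, 20.8% held at least 1 core on either strand and 0.231% held at least 4. The 3 windows are rich in G and C, at 72.3%, 81.7% and 64.7%. Among the 9690 windows with at least 60% G and C, 31.6% held at least 1 core and 0.557% held at least 4. The full palindrome TGACGTCA, which contains the core on both strands, was in none of the 3 windows and in 1.79% of all windows. The NBRE AAAGGTCA (1.51% of windows), the nuclear receptor recognition sequence AGGTCA inside it (16.3%) and the CArG box bound by serum response factor (1.63%) were in none of the 3 either, searched on both strands. The letters TATAAA, on either strand, were found in the Nr4a2 window alone of the 3 (13.6% of all windows). These matches describe letters in these windows and say nothing of binding.

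All 3 starts carried H3K4me3 in RXRKO HSCs and in WT HSCs, although Nr4a3 had no call in either genotype with peaks of a fold of 4 or more. At Nr4a1 the peak over the start was 1934 bp long in RXRKO and 1901 bp long in WT. Its fold over local background, as the authors' peak caller gave it, was 4.27 in RXRKO and 4.48 in WT. At Nr4a2 the peak over the start was 1805 bp long with a fold of 10.5 in RXRKO and 1934 bp long with a fold of 10.1 in WT. This was the start with the highest fold of the 3, at the 86.8 percentile of the RXRKO list and the 82.4 percentile of the WT list.

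Nr4a3 had the longest H3K4me3 peak at its start and the lowest fold. A single peak of 3231 bp ran from 0.94 kb before to 2.29 kb after the start in RXRKO. In WT the same stretch was split into peaks of 2448 and 623 bp. The main peak was at the 99.5 percentile of length in RXRKO and the 97.4 percentile in WT, while its fold was 2.92 in RXRKO, at the 11.6 percentile, and 2.61 in WT, at the 3.8 percentile. Within 1 kb of the start H3K4me3 covered 1609 bp in RXRKO and 1520 bp in WT at Nr4a1, 1414 bp in RXRKO and 1533 bp in WT at Nr4a2, and 1942 bp in RXRKO and 1912 bp in WT at Nr4a3. Over all genes, H3K4me3 at the start was called in both genotypes for 66.6%, in RXRKO alone for 1.08% and in WT alone for 0.425%.

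**Figure D1:**
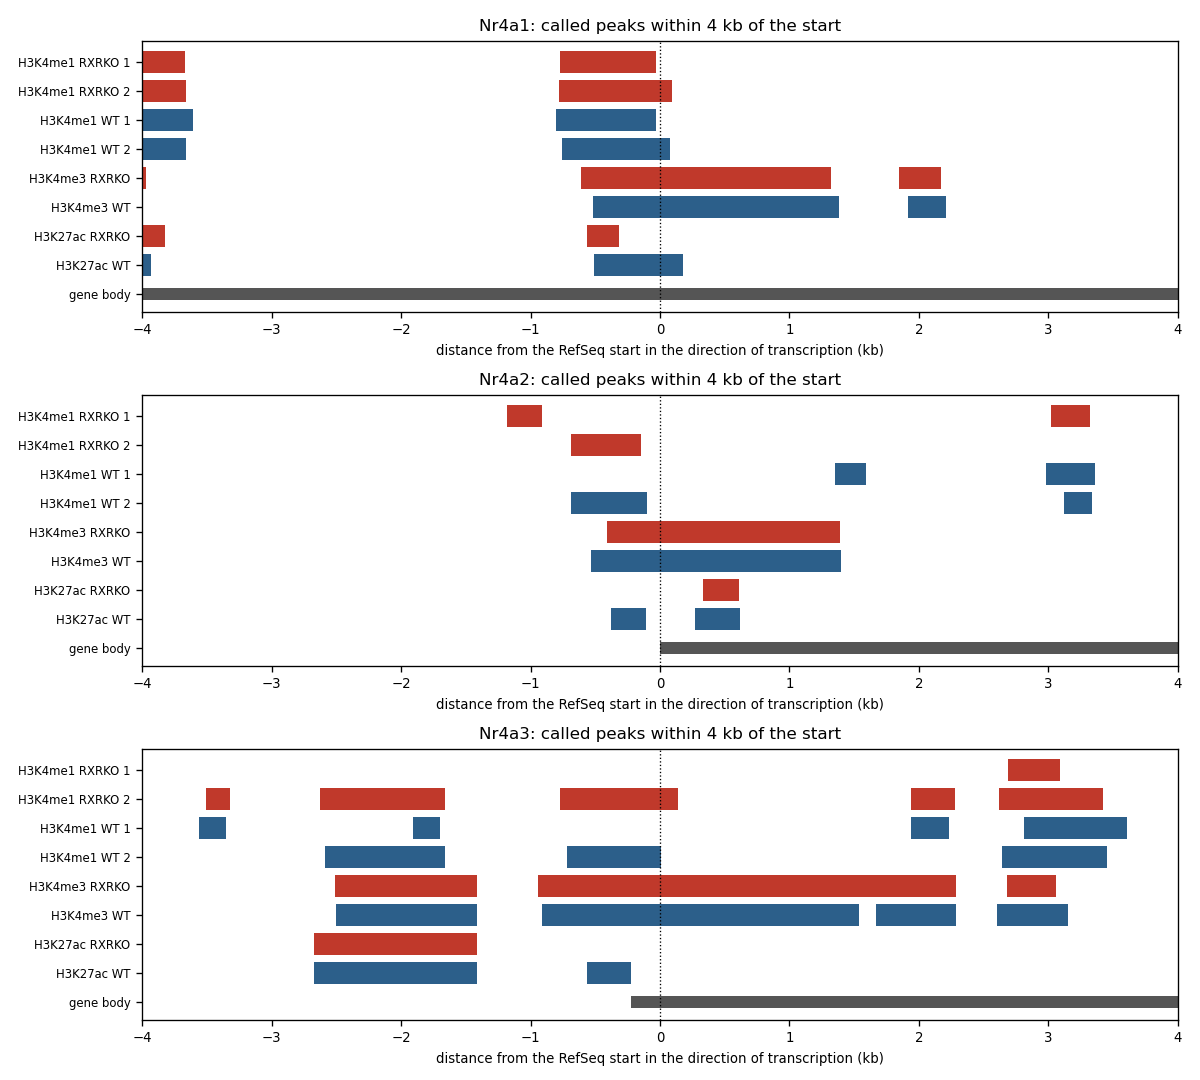
Called peaks within 4 kb of the start of Nr4a1, Nr4a2 and Nr4a3, by distance in kb in the direction of transcription. Each row is 1 library, RXRKO in red above WT in blue for each mark, and the grey bar is the annotated gene. H3K4me3 crosses every start in both genotypes, and H3K27ac within 1 kb of each start is shorter in RXRKO or, at Nr4a3, called in WT alone, while the Nr4a3 peak 2.0 kb upstream is in both genotypes.

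H3K27ac near the start was shorter in RXRKO at all 3 genes. Within 1 kb of the Nr4a1 start it covered 240 bp in RXRKO and 693 bp in WT. The RXRKO peak, with a fold of 2.86, ended 0.32 kb before the start, while the WT peak, with a fold of 4.22, ran on to 0.18 kb after it. At Nr4a2 it covered 281 bp in RXRKO and 616 bp in WT. RXRKO had a single peak there, downstream of the start and 281 bp long, while WT had one on each side, of 266 bp upstream and 350 bp downstream. At Nr4a3 RXRKO had no peak within 1 kb of the start, and WT had one of 340 bp between 0.56 and 0.22 kb upstream. That WT peak was weak, with a fold of 2.26 at the 2.5 percentile of its list and a -log10 q of 4.33.

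The ratio of RXRKO to WT length was 0.346 at Nr4a1 and 0.456 at Nr4a2. The RXRKO peak of 240 bp at Nr4a1 was at the 0.0 percentile of length in its list, near the shortest length called. The WT peak there was at the 64.6 percentile of its list. At Nr4a2 the RXRKO peak was at the 10.6 percentile, and the WT peaks were at the 13.5 and 25.5 percentiles. RXRKO had at most 0.5 times the WT length at 10.2% of the 10805 promoters with a RefSeq start and H3K27ac in either genotype, and at least 2 times the WT length at 2.39%. It was lower in RXRKO at 59.7% of them, and the RXRKO list holds fewer peaks in all. This measure was chosen after the values of the 3 genes had been seen, and no replicate exists to give it an error. The lists cannot tell a mark present in fewer cells from less of it in each cell. Scored as called or not within 1 kb, H3K27ac was in both genotypes at Nr4a1 and Nr4a2 (56.7% of all genes) and in WT alone at Nr4a3 (4.27% of all genes, against 1.15% in RXRKO alone). With peaks of a -log10 q of at least 5 Nr4a3 had no call in either genotype. Within 2.5 kb of its start, which takes in a site further upstream, both genotypes were called, with 1087 bp in RXRKO and 1429 bp in WT.

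Nr4a3 had acetylated elements elsewhere in both genotypes. An element 2.0 kb upstream of its start carried 1260 bp of H3K27ac in RXRKO and 1256 bp in WT, with a fold of 4.01 in RXRKO and 4.54 in WT. The same element carried 1095 bp of H3K4me3 in RXRKO and 1090 bp in WT, and its H3K4me1 covered 0 and 975 bp in RXRKO replicates 1 and 2, against 213 and 927 bp in WT replicates 1 and 2. An element 11.3 kb upstream carried 1088 bp of H3K27ac in RXRKO and 1245 bp in WT and was the widest H3K4me1 element of this window, with 3007 and 3052 bp in RXRKO and 2728 and 2888 bp in WT. It held 873 bp of H3K4me3 in RXRKO and none in WT.

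The other Nr4a3 elements with H3K27ac in WT alone were small. Besides the start, they lay 38.9 kb upstream with 218 bp, 32.3 kb downstream with 344 bp, and 87.8 kb downstream with 212 bp, inside Stx17. The element at 32.3 kb lies within Nr4a3 and carried H3K4me1 in every H3K4me1 list, with 1801 and 2058 bp in RXRKO against 1751 and 1611 bp in WT, and 472 bp of H3K4me3 in RXRKO against none in WT. Of the 7 acetylated elements of this window, 3 were called in both genotypes, 0 in RXRKO alone (11.1% of acetylated elements in the genome) and 4 in WT alone (21.6%). With the same number of peaks in both H3K27ac lists, RXRKO alone had 1 and WT alone had 2, and a fold of at least 4 left neither genotype with an element of its own (0 each).

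H3K4me1 at the starts differed between replicates more than between genotypes for Nr4a3, and little for Nr4a1. Within 1 kb of the Nr4a1 start it covered 742 and 876 bp in RXRKO and 771 and 846 bp in WT. At Nr4a3 it covered 0 and 914 bp in RXRKO replicates 1 and 2 and 0 and 734 bp in WT replicates 1 and 2, so that both replicate 2 libraries had the mark and both replicate 1 libraries lacked it. At Nr4a2 it covered 95 and 536 bp in RXRKO and 0 and 588 bp in WT, with the same order of replicates. The replicate numbers go with a run tag, which puts both replicate 1 libraries in run 0344 and the other 6 libraries in run 0429.

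Nr4a1 had further H3K4me3 sites upstream of its RefSeq start and within the annotated gene. At its outer 5′ end, centred 12.6 kb upstream of the RefSeq start, peaks of 1590 bp in RXRKO and 1396 bp in WT had a fold of 5.32 in RXRKO and 6.10 in WT, with H3K27ac over 597 bp in RXRKO and 634 bp in WT. A site 5.5 kb upstream carried 748 bp of H3K4me3 in RXRKO and 802 bp in WT, and 836 bp of H3K27ac in RXRKO against 636 bp in WT. The site 4.2 kb upstream held 560 bp of H3K27ac in RXRKO and 336 bp in WT, and 325 bp of H3K4me3 in RXRKO with none in WT. Upstream sites within the gene therefore had longer H3K27ac in RXRKO at 5.5 and 4.2 kb, while at the start it was shorter. Fold was lower in RXRKO at both sites, as it was at the start. It was 3.36 in RXRKO and 4.16 in WT at 5.5 kb, and 3.06 in RXRKO and 3.19 in WT at 4.2 kb. The median H3K27ac peak of the whole list was 601 bp long in RXRKO and 541 bp in WT.

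Nr4a2 held a second broad H3K4me3 domain in its body, centred 8.2 kb from the start. The peak there was 3158 bp long in RXRKO and 3308 bp in WT, at the 99.5 percentile of length in RXRKO and the 99.7 percentile in WT, with a low fold of 3.32 in RXRKO and 3.30 in WT. H3K27ac in the same element covered 1650 bp in RXRKO, in peaks of 1230 and 420 bp, and 968 bp in WT, in a single peak. Past the 3′ end, 20.7 kb from the start, H3K4me3 covered 2192 bp in RXRKO and 1756 bp in WT, and H3K27ac covered 480 bp in RXRKO and 751 bp in WT. The start of Nr4a2 also lies within the annotated gene LOC105244150, on chromosome 2 from 57123334 to 57124694, so peaks over that start cannot be assigned to Nr4a2 alone.

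Across the whole windows Nr4a1 had the most of every mark and the highest share covered. Its window also takes in marked starts of other genes, such as Grasp and Atg101. The ranking is of windows, not gene bodies. H3K4me3 covered 4819 bp in RXRKO and 4710 bp in WT of the 17174 bp Nr4a2 body. In the 20894 bp Nr4a1 body it covered 5085 bp in RXRKO and 4279 bp in WT. H3K4me1 covered 20193 and 25419 bp of the Nr4a1 window in RXRKO replicates 1 and 2, against 19527 and 22213 bp in WT replicates 1 and 2. These are 16.7% and 21.0% of the window in RXRKO and 16.2% and 18.4% in WT. Replicate 2 was higher than replicate 1 in each genotype, and the genotypes overlapped. Among all genes this put Nr4a1 between the 95.8 and 98.4 percentiles in the 4 lists.

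Nr4a3 came next, with H3K4me1 over 11396 and 14690 bp in RXRKO and 12713 and 13049 bp in WT. Both WT values lay between the RXRKO values. In shares of the window this was 8.06% and 10.4% in RXRKO and 8.99% and 9.23% in WT. Nr4a2 had 6614 and 8725 bp in RXRKO and 6635 and 9326 bp in WT, which is 5.64% and 7.45% in RXRKO and 5.66% and 7.96% in WT. Per length, the lowest Nr4a1 library stood above every Nr4a3 library. The highest Nr4a2 value, 7.96%, was just under the lowest Nr4a3 value, 8.06%, and replicates of either gene differed by more than that gap. Medians over all genes ran from 7.27% to 8.65% in the 4 lists.

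**Figure D2:**
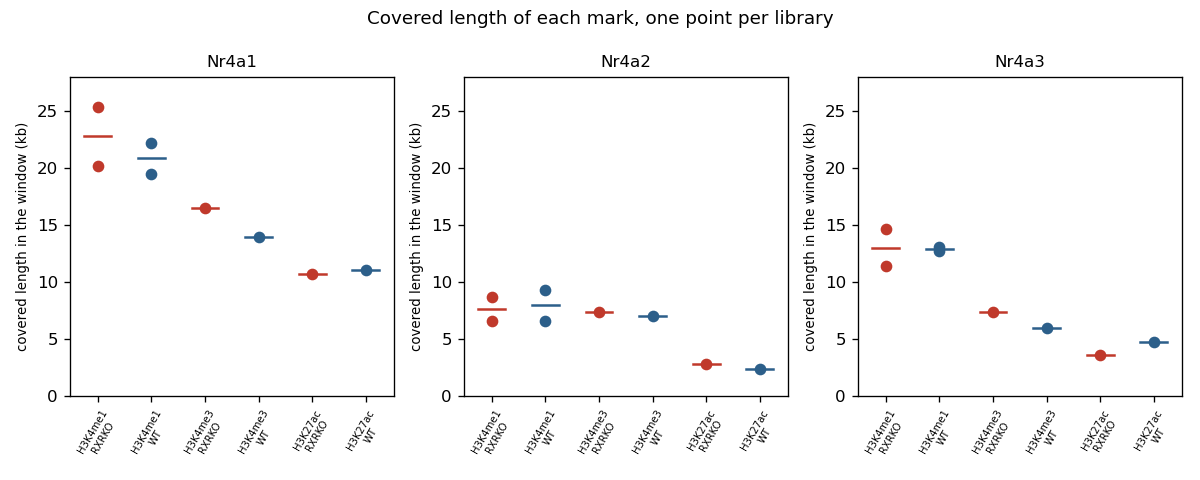
Base pairs under peaks over the gene and 50 kb each side of Nr4a1, Nr4a2 and Nr4a3, in kb, 1 point per library and a line at the mean. RXRKO is in red to the left of WT in blue for each mark. The H3K4me1 points of the genotypes overlap at every gene, and H3K4me3 and H3K27ac have 1 point per genotype.

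H3K4me1 did not pass the test at any of the 3 genes, and the sign of each difference turned under some settings of the processing. In limma over 18650 genes, on log2 of the covered length plus 1000 bp centred on each library's median, the difference of RXRKO minus WT was 0.06 (SE 0.06, adjusted p = 0.96) for Nr4a1, with a 95% interval from -0.08 to 0.20. For Nr4a2 it was -0.10 (SE 0.12, adjusted p = 0.974 in limma), with an interval from -0.37 to 0.17. For Nr4a3 it was -0.05 (SE 0.07, adjusted p = 0.981 in limma), with an interval from -0.21 to 0.12. The intervals leave room for a change of either sign at each gene. Within replicate 1 and replicate 2 the differences were 0.06 and 0.06 for Nr4a1, 0.01 and -0.21 for Nr4a2, and -0.13 and 0.03 for Nr4a3.

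The same limma fit called 0 genes higher and 0 genes lower in RXRKO at the adjusted threshold of 0.05 (0.0% each way), while 1195 genes (6.41%) had an unadjusted p below it. When the replicate number entered the fit as a block, 304 genes (1.63%) were higher in RXRKO and 182 (0.976%) lower. None of the 3 NR4A genes was among them, with limma adjusted p of 0.821 for Nr4a1, 0.828 for Nr4a2 and 0.917 for Nr4a3 in the block fit. Within the gene body alone, the log2 difference of Nr4a2 was -0.51 (limma adjusted p = 0.691). H3K4me1 covered 1549 and 3015 bp of that body in RXRKO replicates 1 and 2 and 2712 and 4108 bp in WT replicates 1 and 2, so RXRKO was lower within each replicate number while the genotypes overlapped.

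Single H3K4me1 regions were tested too, after merging the 4 lists. The 3 windows held 75 regions, of which 40 were called in all 4 libraries (53.3%, against 61.8% of regions in the genome). None passed an adjusted p under 0.05 in limma, with or without the block, against 0.0% of 181242 regions without it and 0.158% higher and 0.13% lower with it. At an unadjusted p under 0.05 there were 5 of 75 (6.67%), against 6.91% of all regions. They were chosen for this description after their values were seen.

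Of these 5 regions 3 belong to Nr4a2. One inside the gene, 13.5 kb from the start, was uncovered in both RXRKO libraries and covered over 451 and 437 bp in the WT libraries (limma adjusted p = 0.573). Another, 8.3 kb from the start in the broad H3K4me3 domain, had 0 and 189 bp in RXRKO and 342 and 581 bp in WT (limma adjusted p = 0.691). The third, 33.5 kb upstream in the noncoding gene BB557941, ran the other way, with 906 and 1250 bp in RXRKO and 605 and 721 bp in WT (limma adjusted p = 0.596). The groups did not overlap at any of the 3, which a choice by low p favours, so this adds no support.

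The other 2 lay in the Nr4a1 window at Grasp, a gene for a scaffold protein of membrane receptors. At the Grasp promoter, 43.0 kb upstream of the Nr4a1 start, H3K4me1 covered 761 and 875 bp in RXRKO and 1156 and 1235 bp in WT (limma adjusted p = 0.52). Inside Grasp, 39.0 kb upstream, it covered 1418 and 1600 bp in RXRKO and 868 and 1076 bp in WT (limma adjusted p = 0.531). H3K27ac covered 576 bp in RXRKO and 267 bp in WT at the site inside Grasp, and 1257 bp in RXRKO and 1021 bp in WT at the element of the Grasp promoter. No Nr4a3 region reached an unadjusted p under 0.05.

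**Figure D3:**
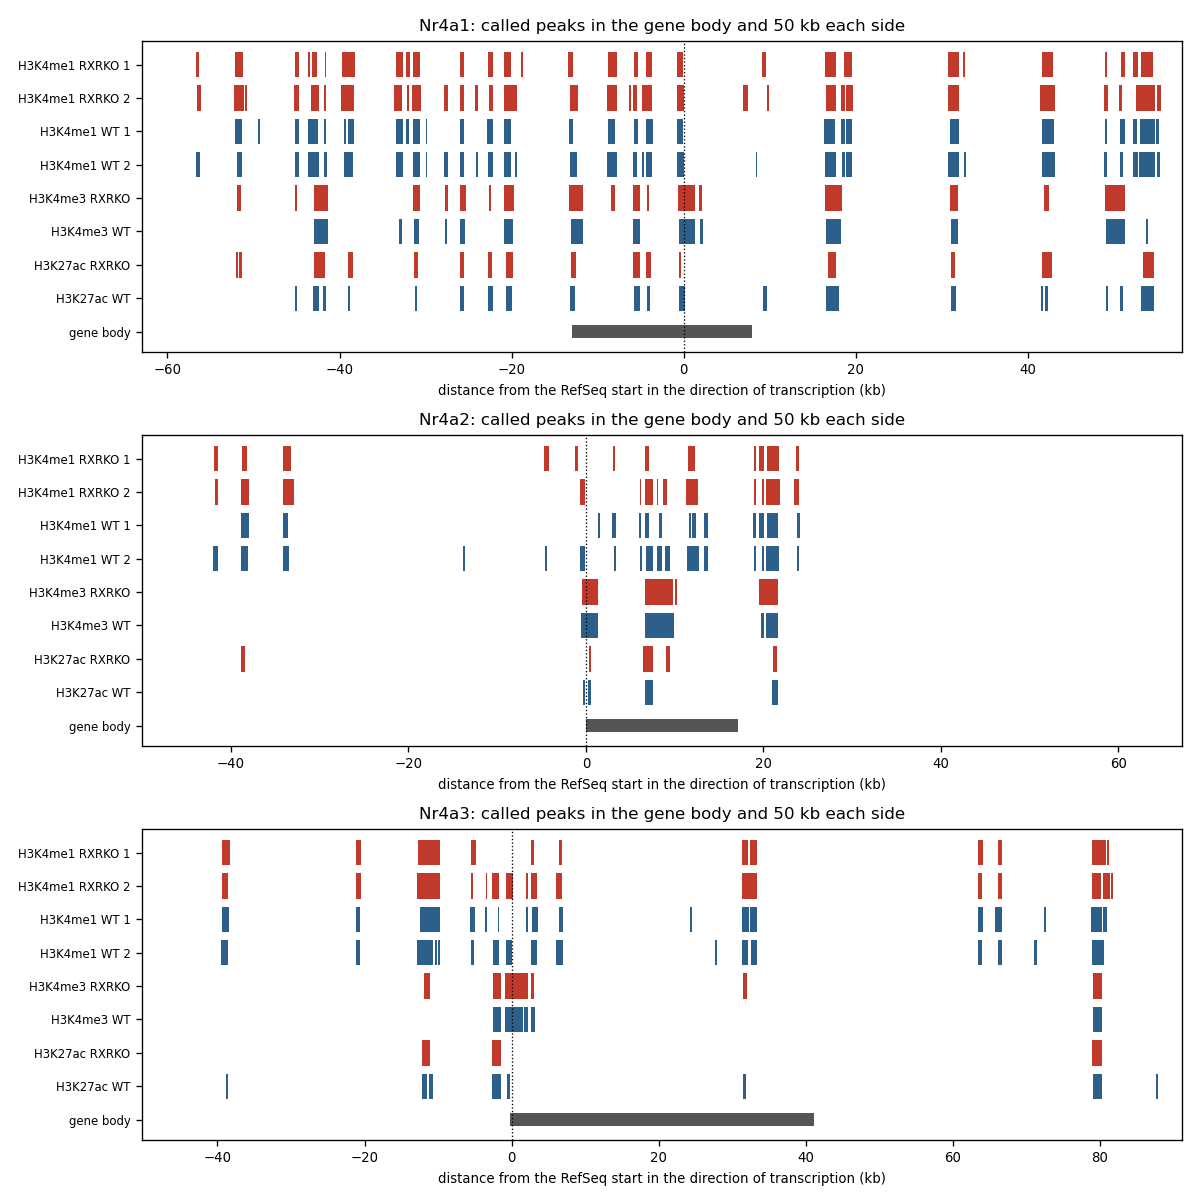
Called peaks in the body and 50 kb each side of Nr4a1, Nr4a2 and Nr4a3, by distance from the RefSeq start in kb in the direction of transcription. Each row is 1 library, RXRKO in red above WT in blue for each mark, and the grey bar is the annotated gene. Nr4a1 is marked along its whole window, and the last Nr4a2 element is centred 23.8 kb downstream. Nr4a3 marks lie around the start, 80.0 kb downstream at Stx17, and at other sites such as 38.9 kb upstream and 32.3 kb downstream.

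Merging the peaks of all 8 lists gave 70 elements, 35 for Nr4a1, 16 for Nr4a2 and 19 for Nr4a3. All 8 lists called 12 of them (17.1%, against 19.0% of the 176492 elements of the genome), 9 in the Nr4a1 window, 2 in the Nr4a2 window and 1 in the Nr4a3 window. The element near Nr4a3 was the start of Stx17, which encodes a fusion protein of autophagosomes. H3K27ac was on 29 elements (41.4%, against 42.4% of all elements). Of these 20 were in both genotypes, 2 in RXRKO alone and 7 in WT alone. The 6.9% in RXRKO alone stands beside 11.1% over the genome and the 24.1% in WT alone beside 21.6%.

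H3K4me3 went the other way, as the whole lists do. Of 30 elements with the mark, 19 had it in both genotypes, 9 in RXRKO alone (30.0%, against 20.8% over the genome) and 2 in WT alone (6.67%, against 3.95%). With a fold of at least 4 these counts were 11, 2 and 0. H3K4me1 was called in all 4 lists at 36 of 67 elements (53.7%, against 62.3%). It was in both RXRKO lists and no WT list at 0 elements (2.21% over the genome). It was in both WT lists and no RXRKO list at 2 elements (1.96%).

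The elements of the Nr4a1 window with H3K27ac in 1 genotype alone lay at least 9.4 kb from its start. RXRKO alone carried it 51.7 kb upstream of the start, over 632 bp, and 42.3 kb downstream it covered 1175 bp in RXRKO and 529 bp in WT. Both elements also held H3K4me3 in RXRKO alone, over 480 and 570 bp. WT alone carried H3K27ac over 240 bp at 45.0 kb upstream, 449 bp at 9.4 kb downstream and 623 bp at 50.1 kb downstream. Of these, the element 45.0 kb upstream is at the start of AU021063 and that 50.1 kb downstream at the start of Gm52200, which also carried 2267 bp of H3K4me3 in RXRKO and 2273 bp in WT. In the Nr4a2 window an element 38.4 kb upstream, within BB557941, held 443 bp of H3K27ac in RXRKO and none in WT. The strongest H3K27ac peak of the 3 windows was that at Atg101, which encodes a subunit of the autophagy-starting kinase complex, with a fold of 9.10 in RXRKO and 9.47 in WT.

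Summed over a window, H3K4me3 covered 16550 bp in RXRKO and 13992 bp in WT at Nr4a1, 7424 bp in RXRKO and 6998 bp in WT at Nr4a2, and 7347 bp in RXRKO and 5996 bp in WT at Nr4a3. RXRKO was higher at all 3, but so was the median gene, by 0.15 on the log2 scale, and relative to that median the differences were 0.08 for Nr4a1, -0.07 for Nr4a2 and 0.11 for Nr4a3. The sign turned for Nr4a2 with a peak fold of 4 or more (0.09) and without centring (0.07). For Nr4a3 the difference was -0.09 with a peak fold of 4 or more and was 0.0 in numbers of peaks. Log2 differences above 1 were found in 0.14% of 17845 genes and below -1 in 0.0168%, and none of the 3 reached that size.

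H3K27ac covered 10696 bp in RXRKO and 11062 bp in WT at Nr4a1, 2854 bp in RXRKO and 2335 bp in WT at Nr4a2, and 3606 bp in RXRKO and 4779 bp in WT at Nr4a3. Relative to a median shift of -0.09 the differences were 0.05 for Nr4a1, 0.30 for Nr4a2 and -0.24 for Nr4a3 on the log2 scale. For Nr4a1 the sign turned in windows of 20 and 5 kb (-0.11 and -0.17), with a peak fold of 4 or more (-0.14), without centring (-0.04) and in numbers of peaks (-0.14). For Nr4a3 it turned with peaks of a -log10 q of at least 5 (0.46), with a fold of at least 4 (0.20) and with equal numbers of peaks (0.24). None of the 3 passed a log2 difference of 1, which 0.267% of 17235 genes did upward and 0.151% downward.

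**Figure D4:**
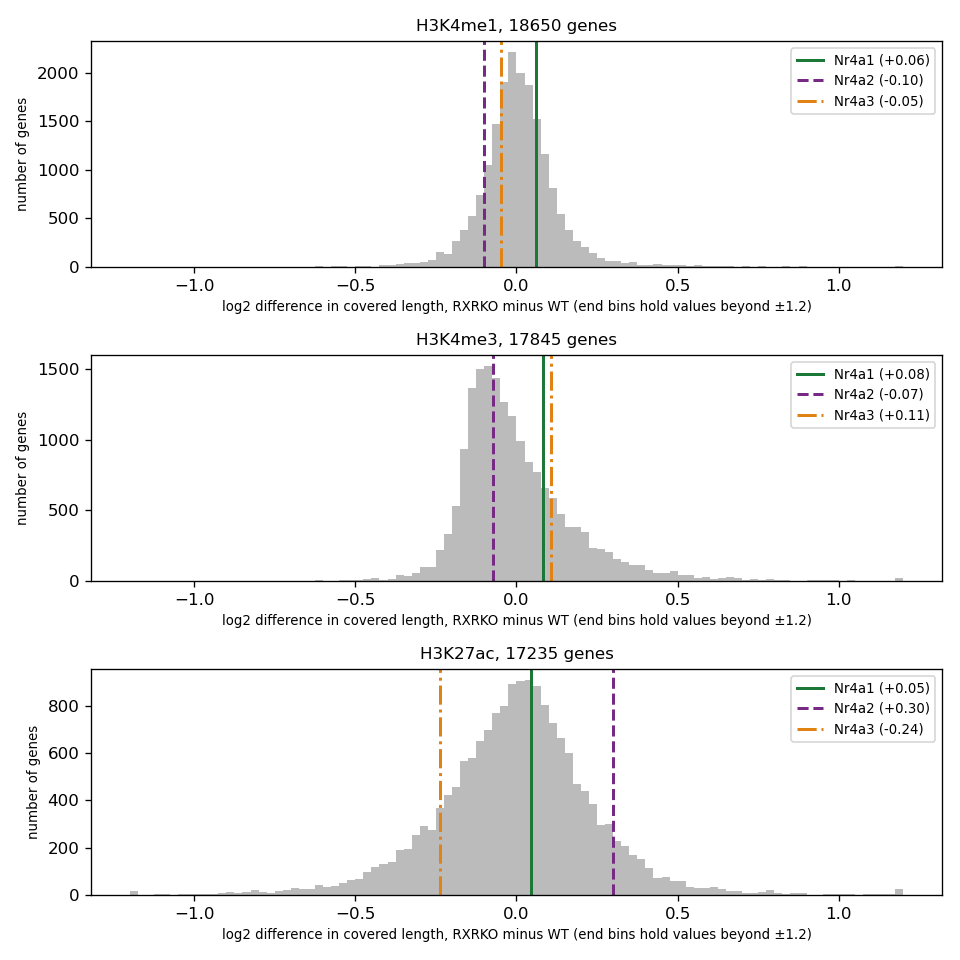
Histograms of the log2 difference in covered length, RXRKO minus WT, over all genes for each mark, in number of genes per bin, with Nr4a1, Nr4a2 and Nr4a3 as vertical lines. For H3K4me1 the 3 genes sit at 0.06, -0.10 and -0.05, and the largest difference among them is 0.30, for H3K27ac at Nr4a2.

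None of the 6 protein-coding neighbours in the windows passed the H3K4me1 test. Acvr1b, an activin receptor, Grasp, Atg101 and Smim41 at Nr4a1, LOC105244150 at Nr4a2 and Stx17 at Nr4a3 had H3K4me1 differences between -0.10 and 0.14, with limma adjusted p between 0.873 and 0.994. Their windows overlap those of the NR4A genes and share peaks with them. H3K4me3 around Stx17 differed by 0.47 on the log2 scale, the largest value of any mark among these neighbours.

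By smallest distance of log2 covered length over the 8 lists, the genes most like Nr4a1 were Abcb8 (0.13), Mark4 (0.15) and Tjp3 (0.18), where the median gene stood at 3.31. The genes most like Nr4a2 were Foxp3 (0.32), Dhx29 (0.39) and Axin2 (0.45), against a median of 2.58. This likeness is of window sums, not of starts. Unlike Nr4a2, Foxp3 had neither H3K4me3 nor H3K27ac within 1 kb of its start in either genotype. Among those most like Nr4a3 were Duox2 (0.18) and Adrb3 (0.19), against a median of 1.92. Abcb8, for example, had 10385 bp of H3K27ac in RXRKO and 11087 bp in WT, close to Nr4a1 in both.

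Other immediate early genes, induced with the NR4A family by the same signals, showed no call in H3K4me1. Of 30 such genes 15 had a difference above 0 and 15 below, with 0 higher and 0 lower in limma and a median of 0.002, the same as over all genes. The ends of that range were Klf10 (-0.21), Fosb (-0.14), Nfkbia (0.11) and Zfp36 (0.14), with limma adjusted p from 0.691 to 0.885. All 30 had H3K4me3 at the start in RXRKO and in WT. H3K27ac was at 25 starts in RXRKO and 27 in WT, the difference being Ier2 and Ier5, called in WT alone as were 4.27% of all genes. The median H3K27ac difference of the list was -0.12 on the log2 scale, against 0.006 over all genes, with none of the 30 past 1 in either direction. Medians of the other gene and marker lists ran from -0.193 for NR4A targets named in blood cells to 0.138 for erythroid and megakaryocyte markers.

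At starts from RefSeq, H3K27ac was at most 0.5 times as long in RXRKO at 5 of the 21 immediate early genes that carried it (23.8%, against 10.2% of all such promoters), namely Atf3, Ier3, Ier5, Jun and Klf2. It was shorter in RXRKO at 17 of the 21 (59.7% over all promoters), and none was at least 2 times as long. Among HSC markers, Gata2 and Kit had H3K27ac at the start in WT alone, as did 4.27% of all genes. It was at most 0.5 times as long in RXRKO at 3 of 8 HSC markers (37.5%, against 10.2% of all such promoters), Gata2, Kit and Meis1. The same held for 0 of 7 partners and cofactors, 1 of 15 upstream regulators (6.67%), 2 of 10 targets named in blood cells and 1 of 7 named outside blood. It held for 0 of 2 lymphocyte, 1 of 1 granulocyte and monocyte, 1 of 6 erythroid and megakaryocyte, 0 of 1 gate-excluded and 1 of 3 stromal and endothelial markers. These counts were taken after the values of the NR4A genes had been seen and have no replicate.

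Genes that act with the receptors showed the same absence of H3K4me1 calls. Of 11 partners and cofactors 6 were above 0, with Prkdc (-0.10), Rxrb (-0.08) and Ncoa1 (0.08) among those at the ends, and all 11 starts carried H3K4me3 (66.6% of all genes) and H3K27ac (56.7%) in both genotypes. Of 18 upstream regulators 8 were above 0, with Ptger2 (-0.14), a prostaglandin E2 receptor, Crtc2 (-0.09), a CREB coactivator, Elk4 (0.09) and Ptger4 (0.11) at the ends. All 18 carried H3K4me3 and 17 carried H3K27ac at the start, in RXRKO and in WT.

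Genes named elsewhere as NR4A targets were also without a call. Of 15 named in blood cells 5 were above 0, and the ends were Bcl6 (-0.15), Irf4 (-0.15), Tox (0.04) and Jun (0.06). H3K4me3 was at 14 starts in each genotype, and H3K27ac at 12 in RXRKO and 13 in WT, the difference being Cdkn1a, an inhibitor of the cell cycle, called in WT alone as were 4.27% of all genes. Of 16 named outside blood 8 were above 0, from Pomc (-0.26) and Prkag3 (-0.11) to Slc18a2 (0.08) and Bdnf (0.19), and 7 starts in each genotype carried H3K4me3. Over all 18650 genes 50.8% were above 0.

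Among the marker lists 0 genes were called without the block. With it, Fgd5, an HSC marker, was higher in RXRKO (0.26 without the block, limma adjusted p = 0.335, and limma adjusted p = 0.00148 with the block). The block leaves little spread within a gene to estimate, so that fit rests even more than the main one on spread pooled over genes. At the other end of the HSC markers were Ly6a (-0.15) and Slamf1 (-0.14), both sort markers, and Gata2 stood at 0.19. The ends were Nkg7 (-0.12), Cd3e (-0.03), Cd79a (0.09) and Cd8a (0.15) for lymphocyte markers, and S100a8 (-0.14), Itgam (-0.05), Elane (0.02) and Ngp (0.09) for granulocyte and monocyte markers. Those of erythroid and megakaryocyte markers included Klf1 (-0.02), Hba-a1 (0.12) and Epb42 (0.23). Stromal and endothelial markers ran from Kdr (-0.11) and Pecam1 (-0.06) to Cdh5 (0.14) and Lepr (0.29). The ends of the gate-excluded markers included Itgam and Cd48 (-0.03). The limma adjusted p of these genes lay between 0.607 and 0.994.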

How the data were processed

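CUT&RUN of sorted HSCs gave the 8 deposited peak lists, each of a single library. Per the submitters' processing notes, reads were trimmed with cutadapt 1.7.1 and aligned to mm10 with Bowtie2 2.2.5, and peaks were called with MACS3. Its version, and whether a control or a spike-in was used, is not given in the sources used here. Each deposited score is 10 times the -log10 q cut to a whole number in 99.95% of peaks. The fold, a ratio of peak height over local background, and the -log10 p and -log10 q are the authors' values, which served to describe or filter peaks within a list.

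Covered length was the number of base pairs under peaks over the gene and 50 kb on each side, for 21631 protein-coding genes of RefSeq on GRCm38.p6. Genes with a mean of at least 1000 bp of H3K4me1 were fitted in limma 3.58.1 (lmFit, eBayes with trend, Benjamini-Hochberg, threshold 0.05), on log2 of the length plus 1000 bp, centred by library median. Merged H3K4me1 regions were fitted likewise with 200 bp added. H3K4me3 and H3K27ac have 1 library per genotype and no test, and a log2 difference past 1 was counted. A promoter was called by an overlap of at least 1 bp with the 1 kb either side of the start, which RefSeq gave for 17274 genes. For the other 4357 genes it was the annotated end with more H3K4me3, or both ends where they tied. Shares of all genes with H3K4me3 at the start therefore rest partly on starts placed by that mark.

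Replicate numbers are shared between genotypes and go with the run tags in the peak names, so they mark a batch that holds both genotypes. Across 18650 genes the difference between replicates in RXRKO correlated with that in WT with r = 0.21, so the fit with a replicate block is given beside the main one. The gene and region fits without the block were checked on simulated data. The members, gene lists and tests were chosen with earlier results of these data known. Besides the 3 receptors, the rule for named genes takes their protein-coding neighbours, the 3 genes most like each, and the 2 highest and 2 lowest H3K4me1 differences of each list, less 4 genes that are not reported here. Genes named for a promoter call, an H3K27ac length or an H3K4me3 difference, and noncoding genes, were chosen after their values were seen. Alternatives covered the window, thresholds on -log10 q and fold, equal peak numbers, centring, the added length, peak numbers, filtering and leaving out libraries. Sequencing depth is unknown, so no counting intervals were computed.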

Additional observations from a re-analysis of the deposited data

How the results depend on the processing

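No NR4A gene passed the H3K4me1 test under any of the 15 alternatives run for each, where the lowest limma adjusted p was 0.816 for Nr4a1, 0.614 for Nr4a2 and 0.798 for Nr4a3. Depth is unknown, 2 libraries per genotype leave the intervals wide, and H3K4me3 and H3K27ac have no replicate, so none of their differences can be set against an error. Directions were not stable. Nr4a1 turned to -0.068 in numbers of peaks. Nr4a2 turned to 0.476 with a fold of at least 4 and to 0.077 without WT replicate 2. Nr4a3 turned to 0.239 with a fold of at least 4, 0.001 with a -log10 q of at least 5, 0.007 without centring and 0.01 without RXRKO replicate 1. Leaving out 1 library gave 0.014 to 0.109 for Nr4a1, -0.277 to 0.077 for Nr4a2 and -0.106 to 0.01 for Nr4a3, where the lone sample is assumed to vary like the other group.

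Over all genes the count of H3K4me1 calls moved from 0 to 486 with the replicate block, 2 with a -log10 q of at least 5, 53 without centring, 178 without the filter, and between 0 and 142 without 1 library (142 without RXRKO replicate 1, 7 without WT replicate 1). Over regions it was 522 with the replicate block and between 0 and 2278 without 1 library (2278 without WT replicate 1, 1743 without WT replicate 2). The block changed no call at an NR4A gene. Why these counts moved was not tested.

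For H3K4me3 the log2 difference of Nr4a1 was 0.161 at 5 kb and 0.227 without centring. That of Nr4a3 was 0.184 at 20 kb, 0.028 at 5 kb, -0.089 with a fold of at least 4, 0.255 without centring and 0.0 in numbers of peaks. For H3K27ac, Nr4a1 gave -0.107 at 20 kb, -0.167 at 5 kb, -0.144 with a fold of at least 4, -0.044 without centring and -0.135 in numbers of peaks. Nr4a2 gave 0.079 at 5 kb. Nr4a3 gave -0.333 at 5 kb, 0.456 with a -log10 q of at least 5, 0.205 with a fold of at least 4, 0.236 with equal peak numbers, -0.327 without centring and -1.0 in numbers of peaks. The H3K4me3 count past a log2 difference of 1 was 28, and 12 at 5 kb, 66 with a fold of at least 4, 44 without centring, 91 with 200 bp added and 146 in numbers of peaks. That of H3K27ac was 72, and 320 with a fold of at least 4, 235 with 200 bp added and 384 in numbers of peaks.

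With a fold of at least 4, RXRKO alone had H3K27ac at 416 promoters (248 before) and WT alone at 2056 (924 before), and WT alone had H3K4me3 at 209 (92 before). With equal peak numbers H3K4me3 was in RXRKO alone at 125 (234 before) and in WT alone at 157. In the 3 windows, a fold of at least 4 left H3K27ac in both genotypes at 7 elements and in WT alone at 4, with 0 of these at Nr4a3, and H3K4me3 in both at 11, RXRKO alone at 2 and WT alone at 0. Equal peak numbers left H3K27ac in RXRKO alone at 1 Nr4a3 element and in WT alone at 4 elements, 2 of them at Nr4a3, and H3K4me3 in RXRKO alone at 5. A -log10 q of at least 5 left each genotype with H3K27ac of its own at 1 Nr4a3 element. In alternatives chosen after seeing the data, H3K27ac near the start was shorter in RXRKO at Nr4a1 and Nr4a2 under all 4. A -log10 q of at least 5, equal peak numbers and 2.5 kb around the start kept the same peaks. Their lengths at these 2 genes did not change, so they add no support. At a fold of at least 4 RXRKO had 0 bp, against 693 bp in WT at Nr4a1 and 616 bp at Nr4a2. At Nr4a3 both genotypes had 0 bp at a -log10 q of at least 5 or a fold of at least 4.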
